A study of Mus musculus with 9 samples.

Results

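The guanylate binding proteins (GBPs) and the immunity-related GTPases (IRGs) are 2 families of mouse GTPases named here by 10 genes: Gbp2, Gbp2b, Gbp3, Gbp4, Gbp5, Gbp6, Gbp7, Irgm1, Igtp and Iigp1. They were chosen by name, but with earlier results of these data known. The deposited table has an entry under 9 of these names among its 44806 entries, and none under Gbp6. All 9 passed the filter on low counts, which left 16596 genes to be tested.

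GBPs are large dynamin-like GTPases that cells make in response to interferons, above all interferon gamma. They gather on vacuoles that hold pathogens, open them to autophagy proteins, and help inflammasomes to form. IRGs are smaller GTPases with related tasks, split into regulators such as Irgm1 and Igtp, which protect the cell's own membranes, and effectors such as Iigp1, which break down the vacuole. In tumours, GBP transcripts are widely used as a readout of interferon gamma released by T cells.

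The libraries came from tumours of MB49, a mouse bladder cancer cell line, made to overexpress HER2, and this background was shared by all 3 groups. Mice received Lipo-TriTE, Lipo-BiTE or PBS, with 3 libraries per group. Both Lipo agents belong to the lipid-tagged antibody fragments that recruit T cells named in the study's title; the labels give neither their targets nor a dose, a time of harvest, or the strain or age of the mice, and none of the groups used here received a carrier alone. Whether each library stands for its own mouse is not stated, and p-values then reflect only how far the deposited libraries scatter, which may be technical.

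Totals ran from 13152783 to 20273548 counts per library, so that 3 counts equal 0.146 to 0.237 CPM (counts scaled to 1 common library total, after TMM correction of that total). The design text names sorted CD3-positive T cells, whereas the labels and the protocol describe frozen whole tumour. The counts held epithelial keratins: Krt8 had 159 to 295 CPM in Lipo-TriTE, 266 to 380.0 CPM in Lipo-BiTE and 453 to 479 CPM in PBS libraries. The summed level of 6 T cell markers was 511 to 859 CPM in Lipo-TriTE, 116 to 214 CPM in Lipo-BiTE and 23.7 to 28.9 CPM in PBS libraries. In PBS and Lipo-BiTE libraries the keratin gene thus stood above the T cell markers, which goes against sorted T cells. In Lipo-TriTE libraries it stood below them, so this order cannot decide there. Keratin counts were present in every library, and all are called tumour libraries here. In such bulk tissue, fewer cells of a type and less RNA per cell cannot be told apart.

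The upstream sequences are shown to mark letters of the kind through which interferon signalling is known to act. The interferon-stimulated response element (ISRE) is bound by interferon regulatory factors, and the gamma-activated site (GAS) is the pattern known from genes that answer interferon gamma. RefSeq windows of build GRCm38.p6, each of 250 bases before an annotated start, were searched for 7 of the genes, with 8 windows because Gbp3 has a pair of starts. Gbp4 and Gbp6 had no window. Iigp1 was left out by choice before the search, so the motif counts do not cover it. Each sequence runs 5′ to 3′ on the gene's strand, in lower case. Capitals mark matches, read on both strands, to the ISRE core, here GAAA repeated after any 2 bases, or to the GAS letters TTCNNNGAA.
Gbp2, chr3:142620584-142620633, plus strand: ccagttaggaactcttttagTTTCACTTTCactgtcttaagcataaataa
Gbp2b, chr3:142594690-142594739, plus strand: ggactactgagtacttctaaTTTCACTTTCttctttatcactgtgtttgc
Gbp3, chr3:142559979-142560034, plus strand: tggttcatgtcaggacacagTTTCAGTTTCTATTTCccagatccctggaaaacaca
Gbp5, chr3:142496684-142496910, plus strand: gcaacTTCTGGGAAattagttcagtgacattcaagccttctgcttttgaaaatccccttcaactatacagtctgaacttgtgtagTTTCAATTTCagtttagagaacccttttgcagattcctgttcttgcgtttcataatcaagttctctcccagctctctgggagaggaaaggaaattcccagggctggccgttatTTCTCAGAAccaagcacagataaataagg
Gbp7, chr3:142530210-142530312, plus strand: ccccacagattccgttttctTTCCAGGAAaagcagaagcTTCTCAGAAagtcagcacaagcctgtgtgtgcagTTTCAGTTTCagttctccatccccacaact
Irgm1, chr11:48871421-48871470, minus strand: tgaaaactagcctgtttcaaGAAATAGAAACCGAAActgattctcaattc
Igtp, chr11:58199491-58199551, plus strand: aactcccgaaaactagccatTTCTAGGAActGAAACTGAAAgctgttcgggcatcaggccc

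All 7 genes searched had the ISRE core in at least 1 window. It stood in 7 of the 8 windows, against 2.98% of 32851 RefSeq windows of the same length. GAS letters stood in 3 windows, those of Gbp5, Gbp7 and Igtp, against 7.02% of all windows, and 0.332% of all windows held both motifs. The GBP genes carried the ISRE core on the strand opposite to the gene and the IRG genes on the gene's own strand. In Gbp3 and in Irgm1 a pair of ISRE matches overlapped by a few letters. A match is a description of letters and shows no binding.

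**Figure D1:**
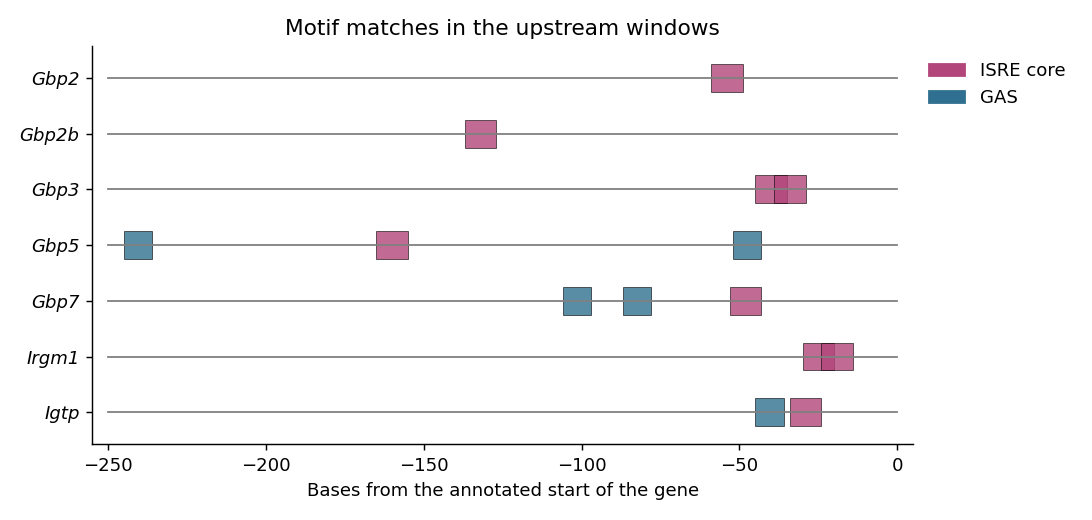
Positions of ISRE core and GAS matches in the 250 bases before the annotated start of 7 genes, with the first window of Gbp3; the x axis gives bases from the start. ISRE matches lie within 59 bases of the start except in Gbp2b and Gbp5, and only Gbp5, Gbp7 and Igtp carry GAS matches.

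The genes lie in a few places. In the deposited C57BL/6NJ gene models, Gbp5, Gbp7, Gbp3, Gbp2b and Gbp2 stand side by side on chromosome 3 (150743920 to 150908051), all on the plus strand over 164132 bases. Gbp4 is on chromosome 5 (111319079 to 111344997, minus strand). Irgm1 and Igtp are on chromosome 11, 10339510 bases apart from outer end to outer end, and Iigp1 is on chromosome 18. The Gbp4 model overlaps that of Gbp8 on the same strand by 25873 bases, and the Igtp model overlaps that of Irgm2 by 6831 bases. How shared reads were assigned is not given in the sources used here, so the split between these neighbours is uncertain.

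Gbp2b, the gene known before as mouse Gbp1, came closest to an on and off pattern. It had 6.75, 5.97 and 5.38 CPM in Lipo-TriTE libraries and 6.94, 13.3 and 3.27 CPM in Lipo-BiTE libraries, against 0.371, 0 and 0.0594 CPM in PBS libraries. The PBS values rest on 5, 0 and 1 counts, so Gbp2b passed the filter on low counts only through treated libraries. Its calls against PBS could thus hardly go any way but higher. Every treated library stood above every PBS library. The fold change was 43.7 for Lipo-TriTE against PBS (95% interval 12.8 to 149, adjusted p = 0.000674) and 56.7 for Lipo-BiTE against PBS (16.5 to 194, adjusted p = 0.000966). These folds depend on the few PBS counts: the log2 fold change for Lipo-TriTE was 5.45, and 7.31 without PBS 1 or 4.85 without PBS 2. For Lipo-BiTE it was 5.83, and 7.70 without PBS 1, 5.20 without PBS 2 or 5.20 without Lipo-BiTE 2.

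Gbp5, which in mice promotes assembly of the NLRP3 inflammasome, had 64.4, 51.4 and 44.7 CPM in Lipo-TriTE libraries and 74.7, 102 and 24.9 CPM in Lipo-BiTE libraries, against 10.4, 8.56 and 7.66 CPM in PBS libraries. The groups did not overlap with PBS in either comparison. Its level was 6.04 times that in PBS tumours under Lipo-TriTE (adjusted p = 0.0014) and 7.58 times under Lipo-BiTE (adjusted p = 0.00132). Both calls held in each of the 16 alternative settings.

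Gbp4 had 208, 102 and 129 CPM in Lipo-TriTE libraries and 115, 135 and 45.1 CPM in Lipo-BiTE libraries, against 25.5, 20.2 and 16.3 CPM in PBS libraries. Again no treated library reached down to PBS. The fold change was 7.10 for Lipo-TriTE (adjusted p = 0.000684) and 4.77 for Lipo-BiTE (95% interval 2.59 to 8.81, adjusted p = 0.00351). Gbp8, its overlapping neighbour, had 41.7 ± 15.7 CPM in Lipo-TriTE, 38.3 ± 18.6 CPM in Lipo-BiTE and 3.60 ± 0.545 CPM in PBS tumours (SD, n = 3 each). Its fold change was 11.6 for Lipo-TriTE (adjusted p = 0.000272) and 10.7 for Lipo-BiTE (adjusted p = 0.000832).

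Gbp7, which in mice brings oxidase subunits to pathogen vacuoles, had 141, 114 and 104 CPM in Lipo-TriTE libraries and 122, 138 and 64.7 CPM in Lipo-BiTE libraries, against 50.9, 46.5 and 47.6 CPM in PBS libraries. It rose 2.48-fold under Lipo-TriTE (adjusted p = 0.00238) and 2.24-fold under Lipo-BiTE (adjusted p = 0.00793), with no overlap of either group with PBS. Gbp2b, Gbp4, Gbp5 and Gbp7 kept their calls in both comparisons with PBS in all 16 settings.

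Gbp2, a prenylated GBP that in mice coats the vacuole of Toxoplasma, had the largest ratio of highest to lowest library of the 9 genes in Lipo-BiTE. It had 155, 177 and 173 CPM in Lipo-TriTE libraries and 202, 347 and 64.1 CPM in Lipo-BiTE libraries, against 79.0, 63.3 and 59.3 CPM in PBS libraries. The Lipo-TriTE libraries lay close together above PBS, whereas Lipo-BiTE 3 fell inside the PBS range. The fold change was 2.50 for Lipo-TriTE (adjusted p = 0.0419) and 3.04 for Lipo-BiTE (adjusted p = 0.0337). The call for Lipo-TriTE was lost in 7 of 16 settings and that for Lipo-BiTE in 11, and without Lipo-BiTE 2 the log2 fold change for Lipo-BiTE was 0.98 (adjusted p = 0.14), against 1.60 with it.

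Gbp3 had 76.9, 52.9 and 56.2 CPM in Lipo-TriTE libraries and 73.2, 93.6 and 34.0 CPM in Lipo-BiTE libraries, against 33.8, 33.5 and 34.2 CPM in PBS libraries. The PBS libraries differed by 1.02-fold, and Lipo-BiTE 3 was level with them. The fold change was 1.83 for Lipo-TriTE (adjusted p = 0.0482), a call lost in 8 of 16 settings. For Lipo-BiTE it was 1.98 and missed the threshold (adjusted p = 0.0509), which it passed in 6 of the settings, among them DESeq2's Wald test (adjusted p = 0.0138).

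Among the IRGs, Igtp, also known as Irgm3, a regulator at the endoplasmic reticulum, was the member that rose. It had 176, 112 and 124 CPM in Lipo-TriTE libraries and 108, 134 and 66.4 CPM in Lipo-BiTE libraries, against 56.4, 64.5 and 57.9 CPM in PBS libraries. The groups did not overlap with PBS, although Lipo-BiTE 3 was just above it. The fold change was 2.31 for Lipo-TriTE (adjusted p = 0.00395) and 1.73 for Lipo-BiTE (adjusted p = 0.0498), the second lost in 11 of 16 settings.

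Irgm1, the regulator that guards lysosomes and Golgi membranes, had 180.4, 119 and 129 CPM in Lipo-TriTE libraries and 137, 192 and 89.4 CPM in Lipo-BiTE libraries, against 119.6, 121 and 114 CPM in PBS libraries. Both treated groups overlapped with PBS. The fold change was 1.21 for Lipo-TriTE (95% interval 0.827 to 1.76, adjusted p = 0.43) and 1.18 for Lipo-BiTE (0.807 to 1.72, adjusted p = 0.541). The effector Iigp1 was low throughout, with 6.22, 5.33 and 1.62 CPM in Lipo-TriTE, 3.16, 7.90 and 1.75 CPM in Lipo-BiTE and 2.08, 3.01 and 2.79 CPM in PBS libraries. Its fold change was 1.67 for Lipo-TriTE (0.681 to 4.10, adjusted p = 0.363) and 1.62 for Lipo-BiTE (0.655 to 4.00, adjusted p = 0.447), and without Lipo-BiTE 2 the log2 value for Lipo-BiTE was -0.11.

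**Figure D2:**
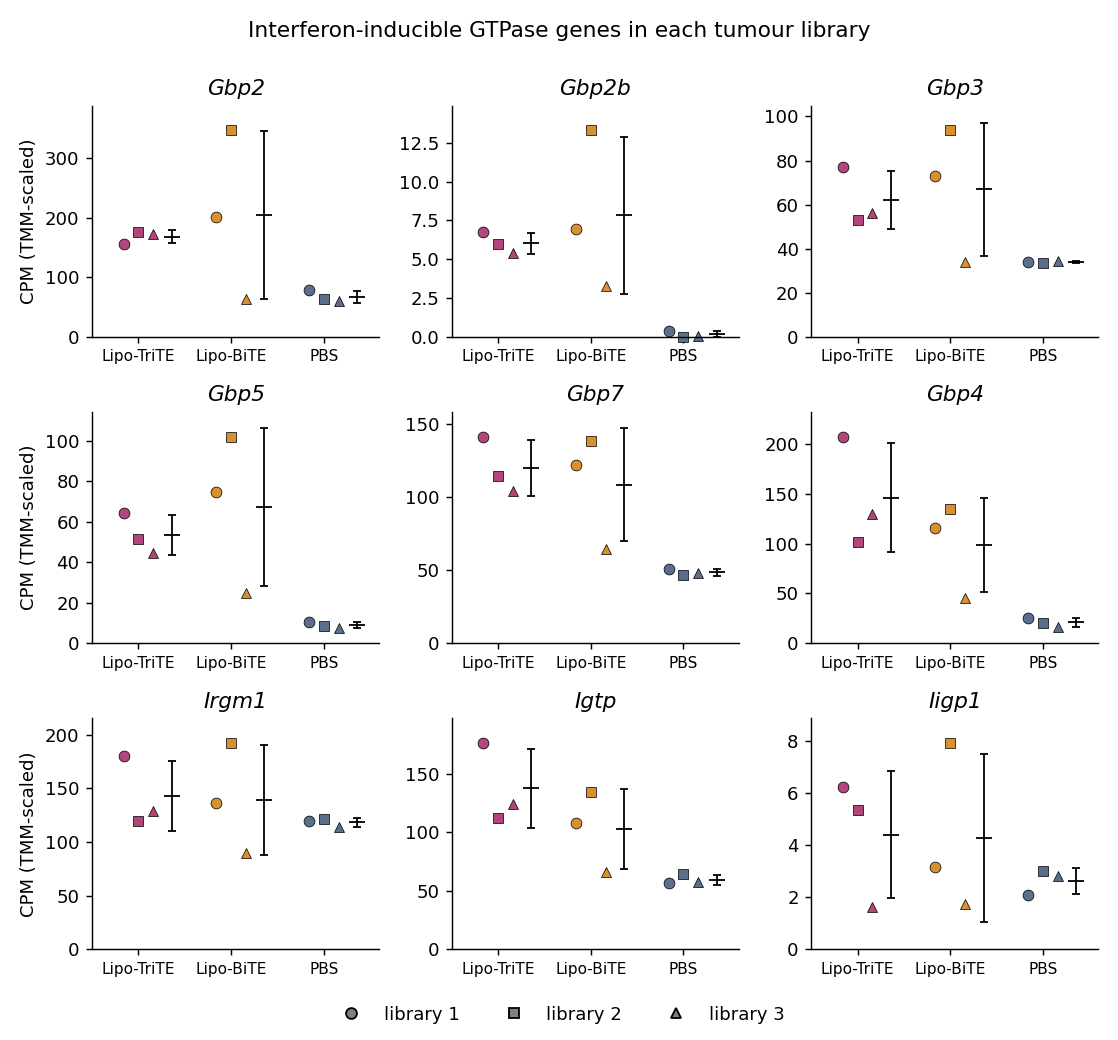
CPM of each gene in every library, with library 1 as a circle, 2 as a square and 3 as a triangle; black marks are group means with SD bars (n = 3), and each panel has its own axis from 0. The treated libraries of Gbp2b, Gbp4, Gbp5 and Gbp7 stand clear of PBS, Lipo-BiTE 2 is the highest and Lipo-BiTE 3 the lowest of its group in each panel, and Irgm1 overlaps across the groups.

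Counted together, 7 of the 9 genes were called higher in Lipo-TriTE than in PBS tumours and 0 lower, a call being an adjusted p under 0.05 in edgeR's quasi-likelihood test over all 16596 genes. Of all genes tested, 18.9% were called higher and 14.8% lower. Of the 9 genes, 7 had every Lipo-TriTE library above every PBS library, against 26% of all genes, and 0 had every one below, against 23.4%. The median log2 fold change was 1.31 over the 9 genes and 0.0032 over all genes tested.

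In Lipo-BiTE against PBS, 6 of the 9 genes were called higher and 0 lower, against 13.8% and 3.22% of all genes tested. Of the 9 genes, 5 had every Lipo-BiTE library above every PBS library, against 22.7% of all genes, and 0 had every one below, against 19.4%. The median log2 fold change was 1.16 over the 9 genes and -0.02 over all genes tested. Both comparisons use the same PBS libraries, and both counts include Gbp2b, which passed the filter only through treated libraries.

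Split by family, 6 of 6 GBP genes and 1 of 3 IRG genes were called higher in Lipo-TriTE than in PBS tumours. In Lipo-BiTE against PBS it was 5 of 6 GBP genes and 1 of 3 IRG genes. Among all genes tested, 18.9% were called higher in Lipo-TriTE and 13.8% in Lipo-BiTE. Counts out of 3 genes are too few to set against these shares. The summed CPM of the GBP genes was 556 ± 83.2 in Lipo-TriTE, 553 ± 299 in Lipo-BiTE and 179 ± 18.4 in PBS tumours (SD, n = 3 each). The summed CPM of the IRG genes was 285 ± 68.1 in Lipo-TriTE, 247 ± 88.5 in Lipo-BiTE and 181 ± 7.42 in PBS tumours.

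Lipo-TriTE and Lipo-BiTE tumours were not told apart by any of the 9 genes. In edgeR's test 0 were called in either direction, against 4.88% of all genes called higher and 5.21% called lower. None of the 9 had an unadjusted p under 0.05, against 26% of all genes, and DESeq2's Wald test called 0. The groups overlapped for each of the 9, whereas 16.1% of all genes were higher and 14.4% lower with no overlap. Fold changes ran from 0.770 for Gbp2b (95% interval 0.328 to 1.81) to 1.49 for Gbp4 (0.832 to 2.66). Narrower intervals were those of Igtp at 1.34 (0.922 to 1.94) and Gbp7 at 1.11 (0.769 to 1.60), and for Gbp2 it ran from 0.421 to 1.61. Lipo-BiTE 2 set several directions: without it the log2 fold change was 0.22 for Gbp2b (-0.38 with it), 0.32 for Gbp2 (-0.28 with it), 0.20 for Gbp3 (-0.11 with it) and 0.09 for Gbp5 (-0.33 with it), and that of Iigp1 was 0.83 (0.05 with it), with none called. These libraries do not settle differences inside those intervals.

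**Figure D3:**
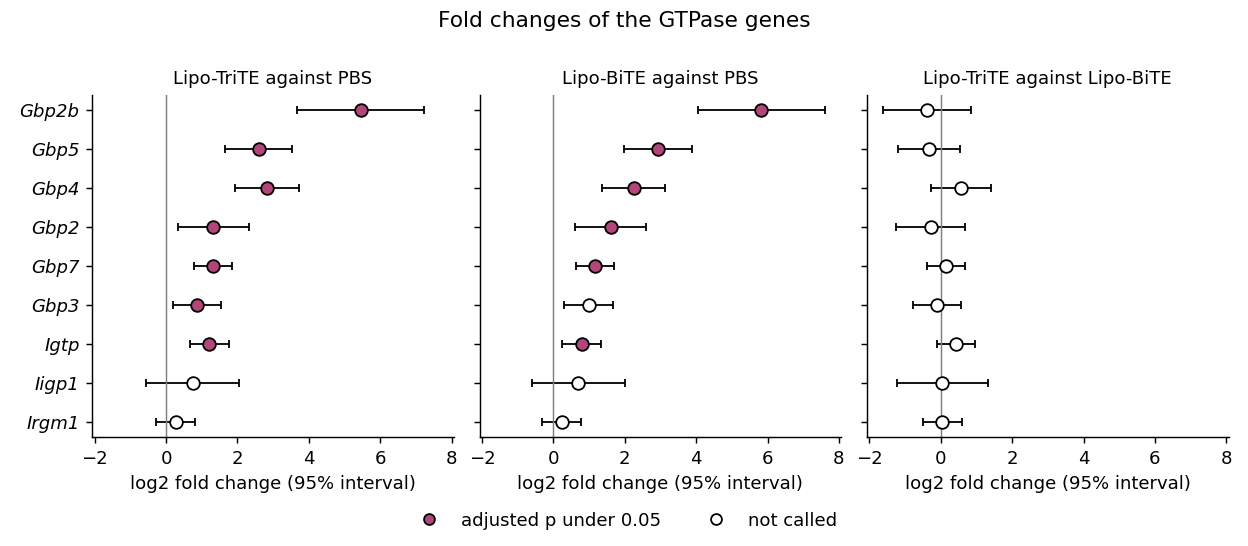
Log2 fold changes with 95% intervals for the 3 comparisons, filled where the adjusted p was under 0.05. Gbp2b, Gbp5 and Gbp4 lie farthest to the right against PBS in both treatments, and every interval for Lipo-TriTE against Lipo-BiTE crosses 0.

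Levels can be compared between genes only per length, as RPKM, which is CPM divided by the deposited gene length in kilobases. On that scale Gbp2 had 84.6 ± 5.77 RPKM in Lipo-TriTE, 103 ± 71.1 RPKM in Lipo-BiTE and 33.8 ± 5.22 RPKM in PBS tumours. Igtp followed with 75.8 ± 18.7 RPKM in Lipo-TriTE, 56.7 ± 18.9 RPKM in Lipo-BiTE and 32.8 ± 2.35 RPKM in PBS tumours (SD, n = 3 each). These led the order in each group and overlapped each other.

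Irgm1 came next in each group, at 24.6 ± 5.65 RPKM in Lipo-TriTE, 24.0 ± 8.84 RPKM in Lipo-BiTE and 20.4 ± 0.670 RPKM in PBS tumours. In PBS tumours the order below it was Gbp3, Gbp7, Gbp4, Gbp5, Iigp1 and Gbp2b, and no neighbours from Igtp downward overlapped. In Lipo-TriTE tumours Irgm1, Gbp7, Gbp4 and Gbp3 overlapped with their neighbours in that order, and in Lipo-BiTE tumours the neighbours from Irgm1 down to Iigp1 all did. Gbp2b was last in PBS tumours, at 0.0508 ± 0.0706 RPKM, and overlapped with Iigp1 in the treated groups, at 2.14 ± 0.244 RPKM in Lipo-TriTE and 2.78 ± 1.80 RPKM in Lipo-BiTE.

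The make-up of the 9 transcripts differed accordingly. Irgm1 gave 9.49% ± 0.853 of their summed RPKM in Lipo-TriTE, 10.3% ± 2.39 in Lipo-BiTE and 18.4% ± 0.623 in PBS tumours. Gbp4 gave 7.59% ± 1.79 in Lipo-TriTE, 5.38% ± 0.607 in Lipo-BiTE and 2.51% ± 0.425 in PBS tumours. Gbp5 gave 3.22% ± 0.291 in Lipo-TriTE, 3.98% ± 0.629 in Lipo-BiTE and 1.23% ± 0.129 in PBS tumours. For these 3 genes no treated library overlapped with PBS. The share of Igtp was 29.2% ± 3.12 in Lipo-TriTE, 24.5% ± 5.85 in Lipo-BiTE and 29.6% ± 2.67 in PBS tumours, within the spread of the libraries. The ratio of summed GBP to summed IRG RPKM was 1.57 ± 0.252 in Lipo-TriTE, 1.92 ± 0.611 in Lipo-BiTE and 1.06 ± 0.151 in PBS tumours.

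**Figure D4:**
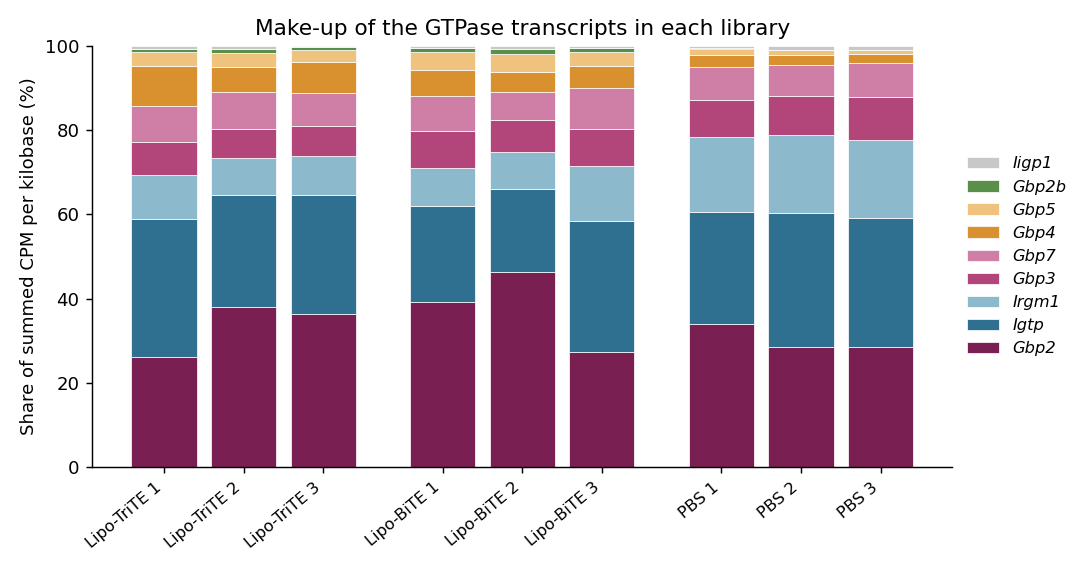
Share of each gene in the summed RPKM of the 9 genes, in percent, with 1 bar per library. Gbp2 and Igtp fill more than any other genes in every bar, and the Irgm1 band is 8.79% to 10.4% of the Lipo-TriTE bars and 8.78% to 13.1% of the Lipo-BiTE bars, against 17.6% to 18.7% of the PBS bars.

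The 9 genes shared 1 order of libraries in Lipo-BiTE but not in Lipo-TriTE. Lipo-BiTE 2 was the highest library of its group and Lipo-BiTE 3 the lowest for 9 of 9 genes, an order that 10.7% of all tested genes had. Lipo-TriTE 1 was the highest of its group for 8 of 9, against 36.8% of all tested genes. The lowest was Lipo-TriTE 2 for 4 genes, Lipo-TriTE 3 for 4 and Lipo-TriTE 1 for 1. Within Lipo-BiTE the highest library exceeded the lowest by 2.03-fold for Igtp to 5.41-fold for Gbp2, where the median over tested genes was 1.46. Within Lipo-TriTE the ratio ran from 1.14 for Gbp2 to 3.84 for Iigp1, with a median of 1.51 over tested genes.

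Lipo-BiTE 3 also had the lowest Ptprc and T cell marker levels of its group, though not the lowest macrophage sum. Ptprc, which encodes the leukocyte antigen CD45, had 1755, 1316 and 1298 CPM in Lipo-TriTE libraries and 1506, 909.7 and 410.0 CPM in Lipo-BiTE libraries, against 72.4, 95.1 and 98.1 CPM in PBS libraries. Lipo-BiTE 2, the highest for the GTPase genes, was therefore not the highest for Ptprc. Lipo-TriTE 1 had the highest Ptprc and T cell marker values and the lowest epithelial marker sum of all 9 libraries, at 346 CPM. The part of these differences in the GTPase values was not tested.

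Leukocyte markers moved with treatment as well. Of 31 markers in 7 leukocyte lists, 31 were called higher in Lipo-TriTE than in PBS tumours and 27 in Lipo-BiTE, the 4 not called being the B cell markers. The summed level of 6 macrophage markers was 448 to 613 CPM in Lipo-TriTE, 640 to 1478 CPM in Lipo-BiTE and 83.8 to 129 CPM in PBS libraries. The summed level of 4 neutrophil markers was 1198 to 3986 CPM in Lipo-TriTE, 1056 to 5796 CPM in Lipo-BiTE and 123 to 272 CPM in PBS libraries. Of 4 epithelial markers, 2 were called lower in Lipo-TriTE and 0 in Lipo-BiTE, and of 4 fibroblast markers 2 were called lower in Lipo-TriTE and 3 in Lipo-BiTE. Beside these, 18.9% of all genes were called higher and 14.8% lower in Lipo-TriTE. In Lipo-BiTE it was 13.8% higher and 3.22% lower. At least 1 count of each leukocyte marker was found in every library except for Cd79a, which was at 0 in PBS 2. The B cell marker Ms4a1 had 1, 2 and 7 counts in PBS libraries and passed the filter on low counts only through treated libraries.

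Between the agents, all 6 T cell and all 4 B cell markers were called higher in Lipo-TriTE than in Lipo-BiTE tumours, while 0 of the 9 GTPase genes were. Of all genes tested, 4.88% were called higher and 5.21% lower in that comparison, so 0 of 9 is near the share of all genes. The summed level of the B cell markers was 273 to 753 CPM in Lipo-TriTE, 3.13 to 11.0 CPM in Lipo-BiTE and 2.08 to 2.48 CPM in PBS libraries. Dendritic cell markers gave 3 of 4 called higher between the agents, and cytotoxic and NK cell markers 1 of 5. Macrophage and neutrophil markers gave 0 calls of 6 and 0 of 4 in that comparison, and the markers of all leukocytes 0 of 2. The part of the cell make-up in the GTPase results was not tested.

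The GTPase genes can also be given per Ptprc count. Irgm1 had 0.0976 ± 0.00627 counts per Ptprc count in Lipo-TriTE, 0.173 ± 0.0716 in Lipo-BiTE and 1.36 ± 0.256 in PBS tumours. A gene with a smaller fold change than Ptprc has a lower ratio in treated tumours by construction. Gbp2b had 0.00417 ± 0.000344 counts per Ptprc count in Lipo-TriTE, 0.00908 ± 0.00510 in Lipo-BiTE and 0.00191 ± 0.00280 in PBS tumours. The fold change of Ptprc was 16.4 for Lipo-TriTE (adjusted p = 0.000108) and 10.6 for Lipo-BiTE (adjusted p = 0.000765), below that of Gbp2b and above those of the others.

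**Figure D5:**
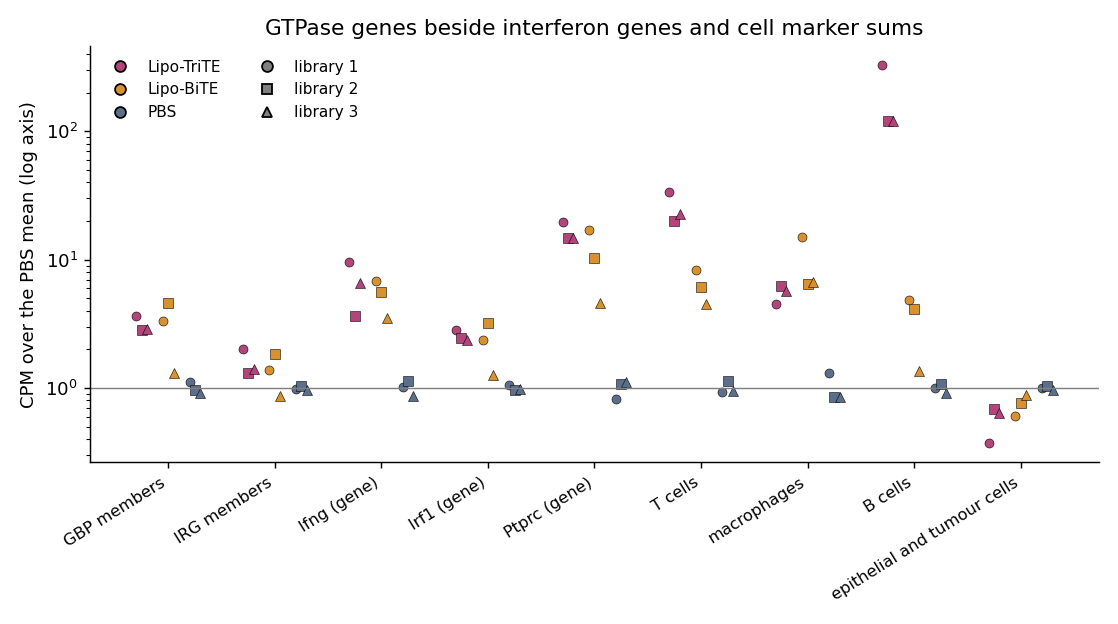
Level in each library over the PBS mean, on a log axis, for the summed GBP genes, the summed IRG genes, 3 single genes and 4 marker sums. The GBP sums lie at 2.81 to 3.64 in Lipo-TriTE and 1.32 to 4.63 in Lipo-BiTE, while Ptprc lies at 14.7 to 19.8 in Lipo-TriTE and 4.63 to 17.0 in Lipo-BiTE, and the B cell sums of Lipo-TriTE lie at 119.5 to 329 times the PBS mean.

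The other genes of the 2 families were fewer under a name of their own. Ifi47, an IRG known as Irgd, had 201, 105 and 121 CPM in Lipo-TriTE libraries and 109, 142 and 45.5 CPM in Lipo-BiTE libraries, against 52.2, 42.4 and 38.7 CPM in PBS libraries. It rose 3.20-fold under Lipo-TriTE (adjusted p = 0.0069) and was 2.22-fold and not called under Lipo-BiTE (adjusted p = 0.0597). Lipo-BiTE 3 was again within the PBS range.

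Irgm2, a regulator like Irgm1, had 71.1 ± 15.3 CPM in Lipo-TriTE, 74.1 ± 30.3 CPM in Lipo-BiTE and 61.1 ± 5.88 CPM in PBS tumours, with a fold change of 1.16 for Lipo-TriTE (adjusted p = 0.563) and 1.21 for Lipo-BiTE (adjusted p = 0.504), neither called. Gm4951 was not called, at 1.13-fold in Lipo-TriTE and 1.44-fold in Lipo-BiTE against PBS. Irgq was not called, at 0.672-fold in Lipo-TriTE and 1.09-fold in Lipo-BiTE. Irgc1 rested on 11 to 21 counts in Lipo-TriTE, 9 to 41 in Lipo-BiTE and 0 to 5 in PBS libraries. Lipo-BiTE 1, 2 and 3 had 41, 14 and 9 counts. Irgc1 passed the filter on low counts only through treated libraries, so a call against PBS could hardly go any way but higher. It was called in Lipo-BiTE against PBS (adjusted p = 0.0299) but not in Lipo-TriTE (adjusted p = 0.0565). None of these genes was called between the agents.

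Upstream of the GTPases stands interferon gamma, which T and NK cells release. Ifng had 21.2, 8.06 and 14.5 CPM in Lipo-TriTE libraries and 14.9, 12.3 and 7.78 CPM in Lipo-BiTE libraries, against 2.23, 2.48 and 1.90 CPM in PBS libraries. No treated library overlapped with PBS. It rose 6.61-fold under Lipo-TriTE (adjusted p = 0.00052) and 5.28-fold under Lipo-BiTE (adjusted p = 0.00177), and the 1.25-fold difference between them was not called (adjusted p = 0.616). Of the interferon ligands listed, Ifng alone passed the filter on low counts.

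Of 6 interferon receptor genes, 5 were called higher in each comparison with PBS and 0 lower. Shares over all genes tested were 18.9% higher in Lipo-TriTE and 13.8% in Lipo-BiTE. The list includes Ifnlr1, which had 0, 0 and 5 counts in PBS libraries. Ifnlr1 passed the filter on low counts only through treated libraries, so a call against PBS could hardly go any way but higher. Ifngr1, the ligand-binding chain of the interferon gamma receptor, rose 4.87-fold under Lipo-TriTE (adjusted p = 0.000461) and 3.90-fold under Lipo-BiTE (adjusted p = 0.0017). Of 9 genes of JAK-STAT and IRF signalling, 8 were called higher in Lipo-TriTE and 6 in Lipo-BiTE against PBS, and 0 lower. Between the agents Irf8, a factor of myeloid and B cells, was called higher, at 404 CPM in Lipo-TriTE and 227 CPM in Lipo-BiTE tumours (adjusted p = 0.0341). Batf2, an interferon-inducible factor of macrophages, was called lower, at 6.27 CPM in Lipo-TriTE and 14.2 CPM in Lipo-BiTE tumours (adjusted p = 0.0308).

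Irf1, an interferon-induced factor that acts on ISRE letters, had 213, 187 and 181 CPM in Lipo-TriTE libraries and 178, 242 and 95.4 CPM in Lipo-BiTE libraries, against 80.2, 73.4 and 74.3 CPM in PBS libraries. It rose 2.55-fold under Lipo-TriTE (adjusted p = 0.00346) and 2.26-fold under Lipo-BiTE (adjusted p = 0.0126), with no overlap with PBS. Gbp7 kept nearly 1 ratio to it, with 0.616 ± 0.0428 counts per Irf1 count in Lipo-TriTE, 0.644 ± 0.0641 in Lipo-BiTE and 0.636 ± 0.00471 in PBS tumours. Irgm1 had 0.731 ± 0.106 counts per Irf1 count in Lipo-TriTE, 0.832 ± 0.0920 in Lipo-BiTE and 1.56 ± 0.0844 in PBS tumours, with no overlap of a treated group with PBS. Gbp4 went the other way, with 0.745 ± 0.216 in Lipo-TriTE, 0.559 ± 0.0874 in Lipo-BiTE and 0.271 ± 0.0488 in PBS tumours. Of the 9 genes, Gbp2b, Gbp4 and Gbp5 had every treated library above every PBS library by this ratio. In Lipo-TriTE 2 genes had every library below PBS, and in Lipo-BiTE 3 did. These ratios follow by construction from the fold changes.

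Among named genes outside the GTPase families, Irf1 was also the gene whose pattern was most like the mean of the GTPase genes. Predicted and unnamed loci were left out of that search. Likeness was the mean absolute difference, over the 9 libraries, between log2 CPM in units of its own SD for the gene and for the mean of the 9 genes. It was 0.145 for Irf1, 0.19 for Gpc2, 0.191 for Parp14, 0.206 for Gjb2, 0.227 for Herc6 and 0.228 for Zbp1, where the median tested gene had 1.05. Parp14, Herc6 and Zbp1 are themselves interferon-inducible. Parp14 averaged 227 CPM in Lipo-TriTE, 232 CPM in Lipo-BiTE and 95.8 CPM in PBS tumours, and Zbp1, a sensor of nucleic acids, 147 CPM in Lipo-TriTE, 126 CPM in Lipo-BiTE and 42.4 CPM in PBS tumours. Gpc2 was low, at a mean of 1.11 CPM in Lipo-TriTE, 1.05 CPM in Lipo-BiTE and 0.0247 CPM in PBS tumours. Gjb2 was low as well, at 1.47 CPM in Lipo-TriTE, 1.04 CPM in Lipo-BiTE and 0.0198 CPM in PBS tumours.

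Of the 9 genes themselves, Gbp3 was nearest to their common mean (0.153) and Gbp7 next (0.185). Iigp1 (0.562) and Irgm1 (0.535) were farthest.

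Brakes on the pathway were called in part. Of 6 negative regulators, 2 were called higher in Lipo-TriTE and 3 in Lipo-BiTE against PBS, and 0 lower. Over all genes tested, 18.9% were called higher in Lipo-TriTE and 13.8% in Lipo-BiTE. Socs3, an inhibitor of cytokine receptor signalling, rose 3.90-fold in Lipo-TriTE (adjusted p = 0.00203) and 7.31-fold in Lipo-BiTE (adjusted p = 0.000787). Socs1, which blocks JAK kinases, rose 2.30-fold in Lipo-TriTE (adjusted p = 0.0455) and 2.86-fold in Lipo-BiTE (adjusted p = 0.0311).

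Of 10 other interferon gamma targets tested, 6 were called higher in Lipo-TriTE and 5 in Lipo-BiTE against PBS, and 0 lower. For all genes the shares called higher were 18.9% in Lipo-TriTE and 13.8% in Lipo-BiTE. Ciita, the switch of MHC class II genes, rose by a log2 fold change of 4.17 in Lipo-TriTE (adjusted p = 0.000148) and 3.23 in Lipo-BiTE (adjusted p = 0.00103). Cd274, which encodes PD-L1, rose 4.78-fold in Lipo-TriTE (adjusted p = 0.00426) and 10.4-fold in Lipo-BiTE (adjusted p = 0.00118). Cxcl10, a chemokine for T cells, was the 1 gene of this list called between the agents, at 30.9 CPM in Lipo-TriTE and 72.3 CPM in Lipo-BiTE tumours (0.428-fold, adjusted p = 0.0238).

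Type I interferon targets gave 7 of 10 called higher in each comparison with PBS, against 18.9% of all genes in Lipo-TriTE and 13.8% in Lipo-BiTE. Mx1, a dynamin-like antiviral GTPase, rose 8.12-fold under Lipo-TriTE (adjusted p = 0.00325) and 7.96-fold under Lipo-BiTE (adjusted p = 0.00605). Oas2, which makes the activator of RNase L, rose 6.74-fold under Lipo-TriTE (adjusted p = 0.00311) and 7.49-fold under Lipo-BiTE (adjusted p = 0.00415). None of the 10 was called between the agents.

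Other lists hold the partners through which these GTPases are known to act. Of 9 inflammasome and pyroptosis genes, 7 were called higher in Lipo-TriTE and 6 in Lipo-BiTE, against 18.9% and 13.8% of all genes tested. Nlrp3, the sensor that Gbp5 promotes, rose by a log2 fold change of 2.79 in Lipo-TriTE (adjusted p = 0.00208) and 3.72 in Lipo-BiTE (adjusted p = 0.00103). Pycard, the inflammasome adaptor, rose 8.98-fold in Lipo-TriTE (adjusted p = 0.000247) and 8.03-fold in Lipo-BiTE (adjusted p = 0.000832).

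Of 9 genes of the ATG8 conjugation machinery, which places GBPs and IRGs on vacuoles, 1 was called higher and 2 lower in Lipo-TriTE, and 2 higher and 0 lower in Lipo-BiTE. These shares are near those of all tested genes, of which 18.9% were called higher and 14.8% lower in Lipo-TriTE, and 13.8% higher and 3.22% lower in Lipo-BiTE. Atg3, the conjugating enzyme, rose 2.31-fold in Lipo-TriTE (adjusted p = 0.00308) and 1.97-fold in Lipo-BiTE (adjusted p = 0.0167). Of 5 prenyltransferase and processing genes, which add the lipid anchor to GBPs that end in a CaaX box, 0 were called higher in either comparison. Fntb, the beta subunit of farnesyltransferase, was lower in Lipo-TriTE, at 0.666-fold (adjusted p = 0.00928), and 0.763-fold and not called in Lipo-BiTE (adjusted p = 0.0854).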

How the data were processed

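RNA from 9 mouse tumour libraries, 3 for each of Lipo-TriTE, Lipo-BiTE and PBS, was sequenced. Per the file headers and the whole-number values, the authors deposited unnormalized counts of reads for each gene, in 1 table with gene lengths, starts and ends. The sources used here do not name the aligner, the counting tool, the strand setting or the build; the identifiers name C57BL/6NJ gene models. Columns headed as untreated were read as PBS because that was the 1 group left, an inference.

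Counts were filtered with filterByExpr, scaled by TMM and tested with edgeR 4.0.16 (quasi-likelihood F test, robust, R 4.3.3) in 1 fit over all 9 libraries, with Benjamini-Hochberg adjustment over 16596 genes. Each standard error is the size of the log2 fold change over the square root of F. CPM and RPKM were computed from the counts. Depth was 13152783 to 20273548 counts per library; precision given by counts covers counting error only. Replicates were compared by chi-square: the closest pair, PBS 2 and PBS 3, had 4.81 per degree of freedom, so no library was a copy. The next closest pair within a group had 22.6. Whether PBS 2 and PBS 3 came from separate tumours is not stated.

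The members and lists were chosen with earlier results of these data known. All members and the other named genes of both families are named; of every other list up to 4 genes with the smallest p in a comparison, plus Ifng and Irf1; 1 more gene of that rule is not reported here; by likeness, 6 named genes. Lists are described by counts and medians. Alternatives were DESeq2 1.42.0 size factors and Wald test, total counts, other filters, fewer libraries and a replicate block. The procedure was tested on simulated data. Motifs were searched in RefSeq windows (GRCm38.p6), a build not mixed with the deposited coordinates.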

Additional observations from a re-analysis of the deposited data

How the results depend on the processing

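Of 27 results (9 genes in 3 comparisons) over 16 alternative settings, 373 kept their direction and side of the threshold, 37 lost a call, 6 gained one and 16 changed sign without a call. Lost calls belonged to Gbp2, Gbp3 and Igtp, gained ones to Gbp3 in Lipo-BiTE against PBS. The number of the 9 genes called higher ran from 5 to 7 in Lipo-TriTE against PBS and from 4 to 7 in Lipo-BiTE against PBS, and 0 were called between the agents in every setting. Total-count scaling moved the median log2 fold change of all genes to -0.16 in Lipo-BiTE against PBS and to 0.11 in Lipo-TriTE against Lipo-BiTE, and there Gbp3 turned to 0.03 from -0.11. Same-numbered libraries did not deviate together (correlations of -0.19 to 0.076), and pairs with different numbers had -0.17 to 0.24. This gave no sign that the numbers pair libraries, but with 3 per group it cannot exclude pairing. With a replicate block 6 of the 9 genes were called for Lipo-TriTE and 4 for Lipo-BiTE against PBS, and 0 between the agents. In that setting 282 genes of all were lower in Lipo-BiTE against PBS. Counts over all genes moved more: lower in Lipo-BiTE against PBS were 534, but 988 with total counts, 995 with DESeq2's Wald test and 839 with no filter. Lower in Lipo-TriTE against Lipo-BiTE were 865, but 451 with total counts, 1455 with no filter and 510 with only the compared groups; higher were 810, but 1475 with DESeq2's Wald test and 1538 with no filter. Leaving out 1 library gave 2575 to 3390 genes higher and 1391 to 2644 lower in Lipo-TriTE against PBS, 1455 to 2656 higher and 80 to 971 lower in Lipo-BiTE against PBS, and 276 to 1077 higher and 158 to 1120 lower in Lipo-TriTE against Lipo-BiTE. The lowest values for Lipo-TriTE against PBS came without PBS 2. The extremes of the other comparisons came without Lipo-BiTE 1 or 3 for the comparison with PBS, and without Lipo-BiTE 2 or PBS 1 between the agents. The cause was not tested. Gbp2b and Iigp1 rest on few counts.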

Other observations

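Beside the named genes, the deposited table describes further entries without a gene name of the family as interferon-inducible GTPases, and these were chosen by their descriptions. Very large interferon-inducible GTPases are relatives of the GBPs. Of 5 tested entries so described, 5 were called higher in Lipo-TriTE and 4 in Lipo-BiTE against PBS, and 0 between the agents. Across all genes, 18.9% were called higher in Lipo-TriTE and 13.8% in Lipo-BiTE. The most abundant, an entry on chromosome 7 (114095045 to 114313015, minus strand of the deposited C57BL/6NJ models, annotated as an unprocessed pseudogene), had 435, 235 and 262 CPM in Lipo-TriTE libraries and 262, 189 and 70.4 CPM in Lipo-BiTE libraries, against 15.3, 18.2 and 23.3 CPM in PBS libraries. No treated library overlapped with PBS. Its fold change was 16.4 for Lipo-TriTE (adjusted p = 0.000179) and 9.14 for Lipo-BiTE (adjusted p = 0.00106). It overlaps other entries of the cluster, and how shared reads were assigned is not given.

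Of 2 tested entries described as GBPs, 2 were called higher in Lipo-TriTE and 0 in Lipo-BiTE against PBS. The less abundant had 6, 5 and 4 counts in PBS libraries. It passed the filter on low counts only through treated libraries, so a call against PBS could hardly be lower. The more abundant, on chromosome 5 (111582661 to 111612595), had 28.2, 5.01 and 9.01 CPM in Lipo-TriTE libraries and 6.39, 6.54 and 2.69 CPM in Lipo-BiTE libraries, against 0.520, 1.59 and 1.60 CPM in PBS libraries. Lipo-TriTE 1 stood apart from its group there. Of 7 tested entries described as IRGs, 3 were called higher in Lipo-TriTE and 2 in Lipo-BiTE against PBS. Among these IRG entries, Gm4841 had 4, 3 and 5 counts in PBS libraries, and another without a gene name had 0, 3 and 2. These also passed the filter on low counts only through treated libraries. Both descriptions cover few entries to set against the 18.9% and 13.8% of all genes called higher.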
